A study of Homo sapiens with 6 samples.

Results

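The genes described here are the named genes of human chromosome 6 that lie on its long arm from IMPG1 to ASF1A, both included, in the order of their RefSeq start positions on GRCh38.p14. They were 120 of the 14884 named genes measured, and 127 probe sets read them. The stretch was chosen from the measured log2 differences between NHE3 knockdown (NHE3kd) and control (Ctrl) cells, so these differences are given as a description of its members and carry no test. By RefSeq biotype, 103 members were protein-coding, 9 were long noncoding or antisense RNA genes, 4 were microRNA genes and 4 were pseudogenes. RefSeq places 168 protein-coding genes between the same ends, of which those without a named probe set were not analysed here.

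Gene expression was measured in SK-CO15, a human colon adenocarcinoma line that forms a polarised epithelium, on Affymetrix Human Gene 2.0 ST arrays, whose probes lie along the whole length of each transcript. The 3 Ctrl arrays (numbered 1, 4 and 9) came from cells carrying a scrambled short hairpin RNA, and the 3 NHE3kd arrays (2, 3 and 10) from cells carrying a pool of 4 hairpins against SLC9A3, the gene of the apical sodium/hydrogen exchanger NHE3. Both populations had been transduced with the same lentiviral vector, with the hairpins under a U6 promoter, sorted for high EGFP, selected in puromycin, kept as mixed populations without cloning, and grown to confluence in serum-containing medium with no further treatment. Nothing in the labels or methods says whether the arrays within a group stand for separate cultures. Every call below therefore measures the spread between these arrays only, and that spread may be technical. SLC9A3 had no named probe set, and its knockdown was not checked here. Each value is a log2 value relative to the Ctrl mean of its own probe set, which leaves no expression level, so neither the levels of different genes nor the markers of colon epithelium could be read from it.

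Neighbouring genes on a chromosome need share no function. The long arm of chromosome 6 carries genes that most dividing cells use, among them a spindle checkpoint kinase, a histone chaperone, an RNA capping enzyme and several mitochondrial proteins, and between them genes known from retina, heart and skeletal muscle, brain or sperm. Genes used by most cells usually start in promoters rich in CG dinucleotides, whereas many genes of single tissues start in promoters that hold few.

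The members were, in the middle, higher in NHE3kd than in Ctrl cells. The median log2 difference over the 120 genes was 0.38, with quartiles of 0.01 and 0.74 and a range from -0.41 to 1.70, and the median over all 14884 named genes was -0.00 (quartiles -0.09 and 0.16). Of the members, 95 lay above 0, or 79.2% against 49.7% of all named genes. In these bulk samples, more cells that make an RNA and more of that RNA per cell cannot be told apart.

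A gene was called when limma's moderated test gave an adjusted p under 0.05 after Benjamini-Hochberg adjustment over all probe sets. By that rule 53 members were called higher, 44.2% of them, where 9.96% of all named genes were. No member was called lower, where 4.51% of all named genes were; at an unadjusted p under 0.05 limma gave 69 members higher and 4 lower, and the methods' t-test with the same adjustment called 22 higher and 0 lower. The 3 NHE3kd values lay above the 3 Ctrl values in 71 members (59.2%, with 21.1% over all named genes) and below them in 6 (5%, with 14.7%). A rise of at least 1.5-fold was measured in 48 members, 40% of them beside 5.64% of all named genes. No member was lower by that much in the mean of its probe sets. FOXO3, with a mean of -0.41, had probe sets at -0.75 and -0.08. Since the same contrast chose the stretch, nothing is read from these counts and shares. Quantile normalization of the deposited values lowered the number of members called to 14, all higher, and the median to 0.27.

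The differences of members called and not called overlapped, the called ones starting at 0.35 and the others reaching 0.74. The 53 members called higher had a median of 0.80 (quartiles 0.61 and 1.01), while the 67 not called had a median of 0.02, a split that follows from the differences themselves, and 39 members lay within 0.1 of 0. Of the 67 not called, 7 were higher by at least 1.5-fold. Protein-coding members had a median of 0.54, with 51 of 103 called higher. Among the 9 long noncoding and antisense genes the median was 0.03 and 2 were called higher, both antisense genes, HMGN3-AS1 at 0.41 and TRAF3IP2-AS1 at 0.42. The 4 microRNA genes had a median of -0.02 and the 4 pseudogenes one of -0.03, and none of these 8 was called.

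The 3 NHE3kd arrays all showed the higher values. Over the 120 members the array medians were -0.00, -0.02 and 0.03 in Ctrl 1, 4 and 9, and 0.32, 0.44 and 0.41 in NHE3kd 2, 3 and 10, that is 0.39 ± 0.06 (SD, n = 3) in NHE3kd. The groups did not overlap, and NHE3kd 2 was the lowest of its group. Over the remaining 640 named genes of chromosome 6 the medians stayed between -0.02 and 0.01 in all 6 arrays. Among the 53 members called higher, NHE3kd 2 was the lowest NHE3kd array in 34 and the highest in 8, NHE3kd 3 was the highest in 26, and NHE3kd 10 was the highest in 19.

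Members with a promoter rich in CG pairs had higher differences, in the middle, than the others. RefSeq gave a window, from 250 bases before to 50 bases after the most upstream start, for 102 of the 120 members, 30 of which had several starts. Windows with at least 50% GC and a ratio of observed to expected CG pairs of at least 0.6 are called CpG-rich here. Of the 102 windows 83 were CpG-rich, 81.4% beside 65.7% of the windows of the 10749 named genes that had one and 46.7% of all 27305 promoter windows of the table. The 83 members with such a window had a median difference of 0.56 and 39 of them were called higher; the other 19 had a median of 0.03 and 5 were called higher, namely HMGN3-AS1, RTN4IP1, CDC40, HS3ST5 and CEP85L. Over those 10749 named genes the medians were 0.05 for CpG-rich and -0.02 for other windows, with 15.2% and 4.91% called higher. On the short arm CpG-rich genes had a median of -0.02, and on the long arm outside the stretch one of 0.39, with 43 of 109 called higher.

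The windows of 4 members are shown to set the kinds side by side, each 5′ to 3′ along the gene with every CG pair in capitals. The first belongs to GOPC, the member with the second largest rise (1.58), the next to SIM1, a transcription factor gene of the hypothalamus that lay at 0.00, the third to IMPG1, the first gene of the stretch (-0.00), and the last to FOXO3, the member with the lowest difference (-0.41).
GOPC, chr6:117602462-117602761, minus strand: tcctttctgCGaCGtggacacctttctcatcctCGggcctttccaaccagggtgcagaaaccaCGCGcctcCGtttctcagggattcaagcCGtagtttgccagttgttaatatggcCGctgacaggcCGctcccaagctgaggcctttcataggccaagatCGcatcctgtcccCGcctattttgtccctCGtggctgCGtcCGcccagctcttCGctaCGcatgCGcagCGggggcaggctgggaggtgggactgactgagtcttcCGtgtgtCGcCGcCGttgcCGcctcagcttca
SIM1, chr6:100464872-100465171, minus strand: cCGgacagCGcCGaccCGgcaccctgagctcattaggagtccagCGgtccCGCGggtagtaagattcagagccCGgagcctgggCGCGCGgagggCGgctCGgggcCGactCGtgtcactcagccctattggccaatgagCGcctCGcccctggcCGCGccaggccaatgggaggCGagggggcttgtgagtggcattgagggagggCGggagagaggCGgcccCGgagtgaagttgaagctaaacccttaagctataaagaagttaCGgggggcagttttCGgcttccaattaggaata
IMPG1, chr6:76072613-76072912, minus strand: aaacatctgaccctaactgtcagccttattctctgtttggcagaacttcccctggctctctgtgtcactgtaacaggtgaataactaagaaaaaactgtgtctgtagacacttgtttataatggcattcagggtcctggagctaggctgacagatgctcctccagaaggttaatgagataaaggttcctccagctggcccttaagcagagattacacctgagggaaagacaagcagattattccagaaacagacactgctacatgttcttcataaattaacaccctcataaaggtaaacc
FOXO3, chr6:108559575-108559874, plus strand: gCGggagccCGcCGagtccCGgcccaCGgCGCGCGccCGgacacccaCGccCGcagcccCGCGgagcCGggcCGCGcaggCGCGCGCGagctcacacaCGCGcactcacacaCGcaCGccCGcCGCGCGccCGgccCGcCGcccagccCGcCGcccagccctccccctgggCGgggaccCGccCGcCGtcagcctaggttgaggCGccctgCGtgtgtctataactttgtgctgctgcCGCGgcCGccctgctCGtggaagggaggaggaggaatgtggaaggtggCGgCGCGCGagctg
The GOPC window held 23 CG pairs at 60.7% GC and the SIM1 window 25 at 64%, close to each other although the genes' differences were 1.58 and 0.00. IMPG1, a proteoglycan gene of the matrix around photoreceptors, had no CG pair in its window and 43.3% GC. FOXO3 had 47 CG pairs at 78.3% GC, more than GOPC. A CpG-rich window therefore did not mark every high member or only high members: 21 members with one lay within 0.1 of 0, and over the 102 members the Spearman correlation of the CG ratio with the difference was 0.09 (0.20 over the 10749 named genes), given as a description across genes that are not independent.

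The median window of the members held 24 CG pairs at 63.2% GC, close to that of the named genes with 22 at 63%, and that of all promoters held 13 at 58.3%. The GC box GGGCGG, searched on both strands like the other motifs, was found in 70.6% of the members' windows, in 60.3% of those of the named genes and in 44.5% of all promoters. The members with that motif had a median difference of 0.55 and those without it one of 0.10. CCAAT was found in 41.2% of the members' windows, beside 36% for the named genes and 35.7% for all promoters, and CACGTG in 10.8%, beside 9% and 7.4%. TATAAA was found in 9.8%, above the 8.65% of the named genes and below the 12% of all promoters, and TGANTCA in 4.9%, beside 5.85% and 7.72%. Median differences of members with and without the motif were 0.57 and 0.37 for CACGTG and 0.30 and 0.43 for CCAAT. They were 0.16 and 0.43 for TATAAA and 0.02 and 0.45 for TGANTCA. The GC box itself holds a CG pair, so its split is not separate from that by CpG-rich windows. Each motif was searched by itself, so matches of different motifs may overlap, and a match is only a match of letters.

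**Figure D1:**
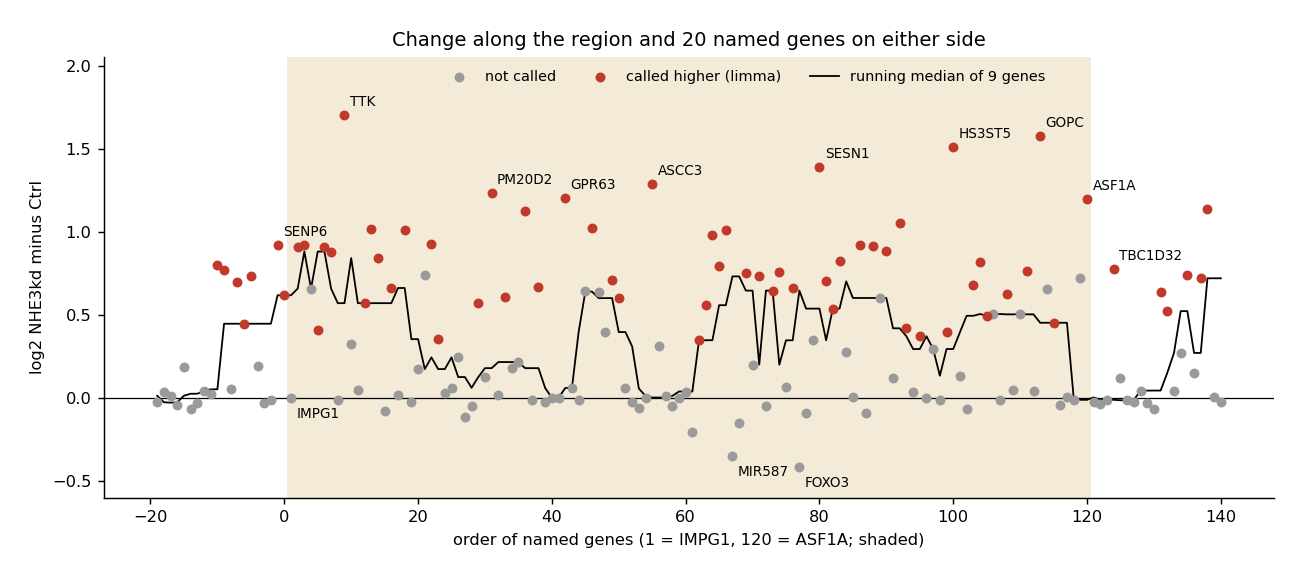
Log2 difference (NHE3kd minus Ctrl, y axis) of each named gene in chromosomal order (x axis, 1 = IMPG1 to 120 = ASF1A, shaded, with 20 named genes on either side); red points are genes called higher by limma, grey points genes not called, and the line is the running median of 9 genes. High genes and genes near 0 alternate along the shaded stretch, and genes called higher, such as SENP6 at 0.92 and TBC1D32 at 0.78, lie outside both ends.

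Along the stretch the high members were spread from end to end and were interleaved with members near 0. The plot of the difference by gene order shows this. In consecutive blocks of 10 members the median was highest at the start, 0.77 from IMPG1 to IBTK, and between 0.33 and 0.65 in 8 of the other blocks. It was 0.18 from ZNF292 to PNRC1 and 0.20 from PM20D2 to EPHA7. One block stood near 0, that from PRDM13 to POPDC1-AS1, with a median of 0.01 and 8 of its 10 genes within 0.1 of 0. Its single called gene, ASCC3, was at 1.29, the fifth largest rise of all members. The block holds PRDM13, SIM1, MCHR2, LIN28B and POPDC1, genes known from the nervous system, the embryo or muscle.

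The blocks behaved alike in the 3 NHE3kd arrays. From IMPG1 to IBTK the block medians were 0.52, 0.86 and 0.85 in NHE3kd 2, 3 and 10, and between -0.02 and 0.03 in the Ctrl arrays. From CEP57L1 to RPF2 they were 0.52, 0.82 and 0.62. From PRDM13 to POPDC1-AS1 they were 0.02, 0.02 and -0.01, within the range of the Ctrl arrays there (-0.02 to 0.02). In each of the other 11 blocks all 3 NHE3kd medians lay above all 3 Ctrl medians.

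**Figure D2:**
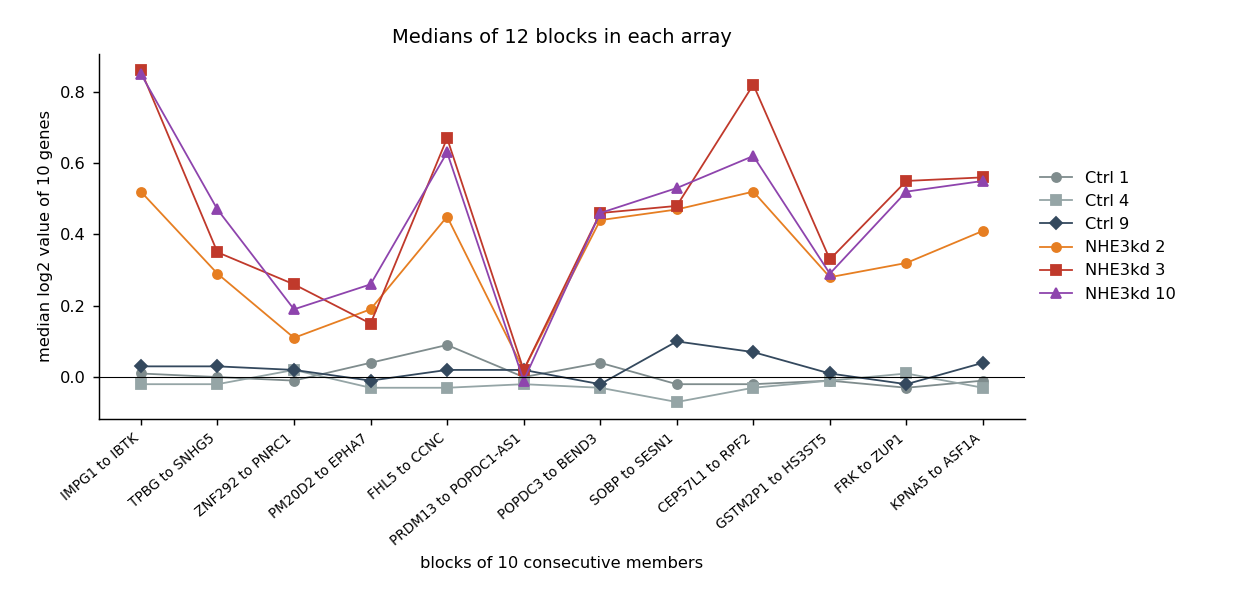
Median log2 value (y axis, Ctrl mean = 0) of 12 consecutive blocks of 10 members (x axis, in chromosomal order) in each of the 6 arrays, with lines joining the blocks of 1 array. The NHE3kd arrays lie above the Ctrl arrays in 11 blocks and meet them in the block from PRDM13 to POPDC1-AS1, and NHE3kd 2 is the lowest NHE3kd array at both the first block (0.52) and the last (0.41).

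In the order of named genes, the longest run called higher held 5 genes, PREP, ATG5, CRYBG1, RTN4IP1 and QRSL1. Their differences were 0.35, 0.56, 0.98, 0.80 and 1.01. PREP is a prolyl endopeptidase, ATG5 a core protein of autophagosome formation, RTN4IP1 a mitochondrial oxidoreductase and QRSL1 a subunit of the mitochondrial glutamyl-tRNA amidotransferase. Next came a run of 4, SESN1, CEP57L1, PPIL6 and ZBTB24, at 1.39, 0.70, 0.54 and 0.82. The longest run of members not called held 6 genes, from HACE1 to POPDC3. Genes without a named probe set may lie between the genes of a run. These runs and the genes in them were chosen after their values were seen.

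The ends of the stretch were set by its definition, and genes called higher lay on both sides of each end. Just inside the first end IMPG1 lay at -0.00, with all 6 arrays between -0.03 and 0.01. The next named gene was IRAK1BP1, which binds the kinase IRAK1, with a difference of 0.91. It had 0.06, 0.01 and -0.07 in Ctrl 1, 4 and 9 and 0.60, 1.21 and 0.92 in NHE3kd 2, 3 and 10. PHIP, a chromatin-binding substrate receptor of a ubiquitin ligase, lay at 0.92, and the nucleosome-binding protein gene HMGN3 at 0.66 without a call. Just outside, 2 of the 5 nearest named genes were called higher. SENP6, a SUMO protease, had 0.18, -0.11 and -0.06 in the Ctrl arrays and 0.85, 1.02 and 0.88 in the NHE3kd arrays, a difference of 0.92. MYO6, a myosin found in the intestinal brush border, differed by 0.62, and TMEM30A-DT, FILIP1 and MIR4463 lay at 0.19, -0.03 and -0.01 without a call.

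At the other end ASF1A, a histone H3-H4 chaperone, was the last member. It had -0.16, 0.06 and 0.10 in the Ctrl arrays and 1.18, 1.26 and 1.16 in the NHE3kd arrays, a difference of 1.20. Of the 4 members before it, the helicase gene MCM9 was at 0.72 with no call, and the pseudogenes BRD7P3 and SELENOKP3 and the muscle gene PLN (phospholamban) were between -0.04 and 0.00. Of the 5 named genes that follow ASF1A, TBC1D32, which acts in cilia, was called higher at 0.78. Its Ctrl values ran from -0.15 to 0.23 and its NHE3kd values from 0.67 to 0.84. SERINC1, MIR548B, LOC285762 and MIR3144 were between -0.04 and 0.12 and were not called. Over 20 named genes, the median was 0.05 before IMPG1 (7 called higher) and 0.61 in the first 20 members (11 called). It was 0.50 in the last 20 members (8 called) and 0.04 after ASF1A (6 called).

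Genes called higher were also frequent on the long arm outside the stretch. The arms were divided by gene order at KHDRBS2, and the 411 named genes of the short arm had a median of -0.03, with 17 called higher (4.14%) and 36 called lower (8.76%). The 29 long-arm genes before IMPG1 had a median of 0.05, an upper quartile of 0.69 and 12 called higher by limma (41.4%), with 0 lower. The 200 after ASF1A had a median of 0.06, an upper quartile of 0.50, 49 called higher (24.5%) and 3 lower. A running median over 9 genes was at least 0.3 at 77 of the 120 members (64.2%), at 15 of the 29 positions before IMPG1 (51.7%), at 32 of 196 after ASF1A (16.3%) and at 2 of 407 on the short arm (0.491%). Its highest value was 0.88 within the stretch, at PHIP, and 0.91 beyond it, at PEX3. Windows near a boundary take in genes of the neighbouring part, and that at PHIP includes SENP6 and MYO6. The value of 0.88 was also reached at HMGN3-AS1, whose window lies inside the stretch. No test of these differences was made, since the contrast chose the stretch.

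**Figure D3:**
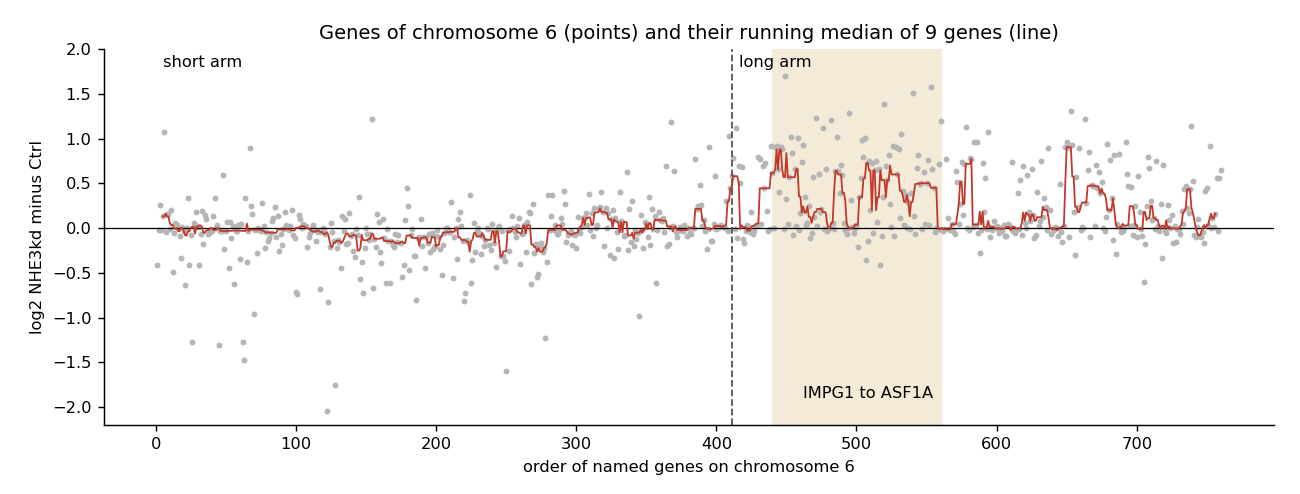
Log2 difference (NHE3kd minus Ctrl, y axis) of the 760 named genes of chromosome 6 in order (x axis), as grey points, with the running median of 9 genes in red; the dashed line divides the arms and the shading marks IMPG1 to ASF1A. The line runs between -0.31 and 0.45 along the short arm. It is highest there at ZNF451 near the arm's end, where the window takes in long-arm genes. The line rises above 0.3 within the shaded stretch and in separate places of the long arm on both sides of it.

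Outside the stretch the largest differences of chromosome 6 were of the following genes. On the long arm after ASF1A, LTV1, a ribosome biogenesis factor, rose by 1.31 (SE 0.14, limma adjusted p = 0.0072), and STXBP5, a syntaxin-binding protein, by 1.22 (SE 0.07, adjusted p = 0.0018). C6orf15 on the short arm was at 1.22 with an SE of 0.47 and was not called (limma adjusted p = 0.21). The 3 lowest genes lay on the short arm: HLA-F-AS1 fell by 2.04 (SE 0.14, limma adjusted p = 0.0025), RNF39 fell by 1.75 (SE 0.17, limma adjusted p = 0.0057), and PPARD, a fatty acid-sensing nuclear receptor, fell by 1.60 (SE 0.13, limma adjusted p = 0.0035). No member of the stretch reached the size of these 3 falls, the lowest member being FOXO3 at -0.41.

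The largest rise among the members was that of TTK, the spindle checkpoint kinase also known as MPS1. Its values were 0.03, 0.01 and -0.04 in Ctrl 1, 4 and 9 and 1.67, 1.72 and 1.72 in NHE3kd 2, 3 and 10, so that the NHE3kd mean was 1.70 ± 0.03 (SD, n = 3), or 3.26-fold. The arrays of each group lay close together and the groups far apart. GOPC, a Golgi protein with a PDZ domain that binds membrane proteins such as CFTR, had 0.08, -0.26 and 0.17 in Ctrl and 1.59, 1.55 and 1.60 in NHE3kd, a 2.98-fold difference. HS3ST5, a heparan sulfate sulfotransferase, had -0.01, 0.14 and -0.14 in Ctrl and 1.42, 1.66 and 1.46 in NHE3kd, a 2.85-fold difference. SESN1, a sestrin known as a p53 target that restrains mTORC1, had -0.03, -0.18 and 0.21 in Ctrl and 1.24, 1.39 and 1.54 in NHE3kd, or 2.62-fold. In each of these 4 genes the lowest NHE3kd array was more than 1 log2 unit above the highest Ctrl array.

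The next 6 rises were smaller, and again no NHE3kd array overlapped the Ctrl arrays. ASCC3, a helicase that acts in alkylation repair and in the rescue of stalled ribosomes, was at 1.18, 1.30 and 1.39 in NHE3kd 2, 3 and 10, with Ctrl between -0.14 and 0.07. PM20D2, a dipeptidase, was at 1.28, 1.18 and 1.25, with Ctrl between -0.10 and 0.18. GPR63, an orphan G protein-coupled receptor, was at 1.09, 1.26 and 1.27, with Ctrl between -0.10 and 0.08. These 3 genes lie apart from each other along the stretch, at the 55th, 31st and 42nd place. ASF1A at 1.20, CASP8AP2, a factor of histone mRNA processing, at 1.12 and SLC60A2, a sugar transporter gene, at 1.06 complete the 10 largest rises. CASP8AP2 had 1.01, 1.19 and 1.17 in the NHE3kd arrays, and SLC60A2 had 1.08, 1.00 and 1.09. The plot of the single arrays shows that no NHE3kd array carried these rises alone.

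**Figure D4:**
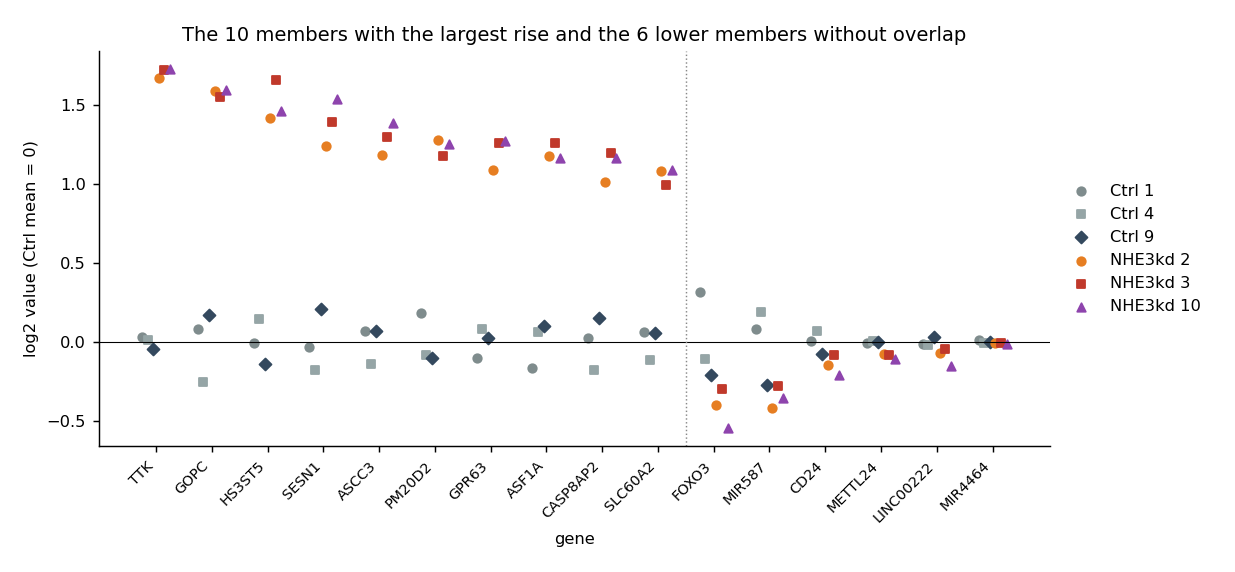
Log2 value (y axis, Ctrl mean = 0) in each of the 6 arrays for the 10 members with the largest rise (left of the dotted line) and the 6 members whose NHE3kd values all lie below the Ctrl values (right of it); each point is 1 array. On the left every NHE3kd array lies far above every Ctrl array, TTK highest at 1.67 to 1.72; on the right the groups lie close, with FOXO3 between -0.30 and -0.55 in NHE3kd.

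In 6 members the NHE3kd values all lay below the Ctrl values, and limma called none of them. The number was 2 after quantile normalization and 10 without Ctrl 1 or without NHE3kd 2, where fewer arrays have to lie apart. For these refits no share over all named genes is given. FOXO3, a forkhead transcription factor of stress responses, had 0.32, -0.11 and -0.21 in Ctrl and -0.40, -0.30 and -0.55 in NHE3kd, a difference of -0.41. It was read by 2 probe sets, which gave -0.75 and -0.08, and since FOXO3 has the near-identical copy FOXO3B, its value is uncertain. CD24, a glycoprotein of the surface of epithelial cells, had 0.01, 0.07 and -0.07 in Ctrl and -0.15, -0.09 and -0.21 in NHE3kd. Near-identical copies of CD24 exist too, so that its reads may be shared. METTL24, a putative methyltransferase gene, lay at -0.09, and the noncoding RNA gene LINC00222 also at -0.09.

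The other members of this group are a pair of microRNA genes, whose mature sequences are shown because a microRNA acts through its seed (bases 2 to 8, in capitals).
hsa-miR-587, chr6:106784140-106784160, plus strand: uUUCCAUAggugaugagucac
hsa-miR-4464, chr6:90312753-90312773, plus strand: aAGGUUUGgauagaugcaaua
These sequences are from RefSeq (GRCh38.p14), and the seeds differ. MIR587 had 0.08, 0.19 and -0.27 in Ctrl and -0.42, -0.28 and -0.36 in NHE3kd, with its lowest Ctrl array next to its highest NHE3kd array. Without Ctrl 9 its difference was -0.49 and limma called it lower. MIR4464 lay at -0.01, with all 6 arrays within 0.02 of 0. The arrays read transcripts of the gene, and the mature microRNA was not measured by itself. In the order of named genes MIR587 lies between QRSL1 (1.01) and CD24 (-0.15).

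Of the 9 function lists, that of DNA replication, repair and the cell cycle had the highest median. The lists were written with the stretch already chosen, so nothing is read from their order. The cell cycle list was drawn broadly. It holds Mediator and cilium genes, while ASCC3, which acts in alkylation repair, was placed under RNA processing. All 9 measured genes of the 13 in that list had NHE3kd values above all Ctrl values, as did 59.2% of all members and 21.1% of all named genes. Their median was 0.92. Limma called 8 of them higher (88.9%), beside 44.2% of all members and 9.96% of all named genes. Besides TTK, ASF1A, CASP8AP2 and PHIP these were CEP162, a centriole protein needed for cilia, at 1.01, CDK19 and CCNC, a kinase and the cyclin C of the Mediator complex, at 0.91 and 0.60, and CEP57L1, a centriole protein, at 0.70. MCM9 was at 0.72 and was not called, with Ctrl values from -0.23 to 0.33 and NHE3kd values from 0.45 to 0.90.

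**Figure D5:**
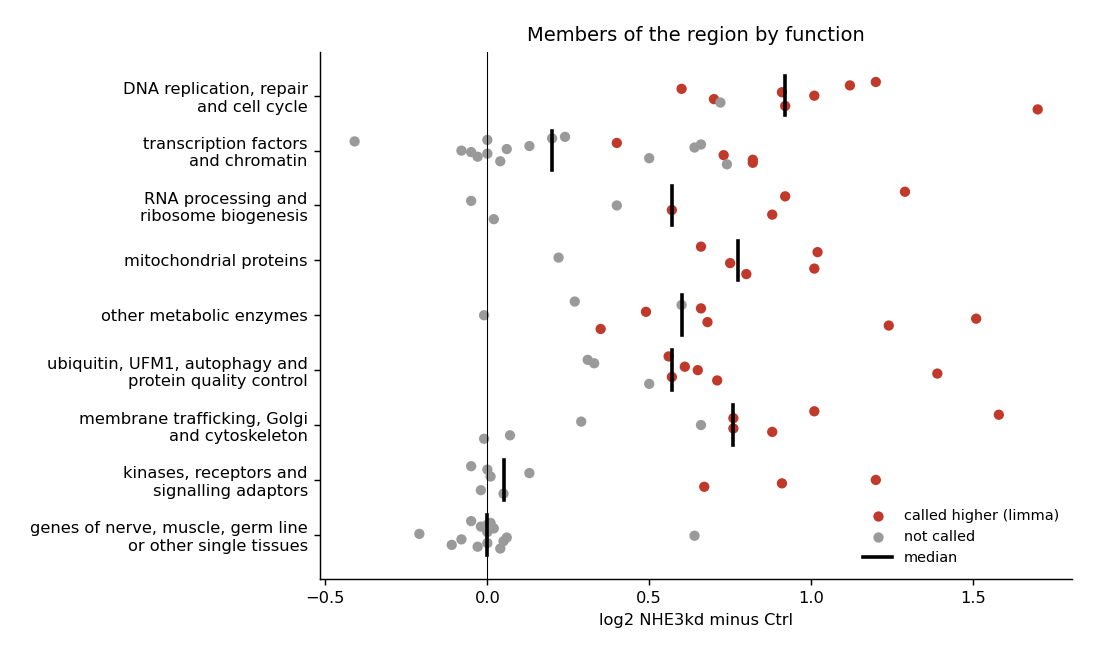
Log2 difference (NHE3kd minus Ctrl, x axis) of the members of 9 function lists (y axis); each point is 1 gene, red where limma called it higher and grey where not, and the black bar is the median of the list. Medians run from 0.92 for DNA replication, repair and cell cycle to 0.00 for genes of single tissues, which hold no called gene.

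Among the 19 measured transcription and chromatin genes the median was 0.20 and 4 were called higher. These were ZBTB24, a zinc finger protein mutated in an immunodeficiency with unstable centromeres, at 0.82, TSPYL4 at 0.82, SOBP at 0.73 and the histone deacetylase gene HDAC2 at 0.40. ZNF292, a zinc finger gene, was at 0.74 and was not called, with Ctrl values of 0.07, -0.36 and 0.30. Its Ctrl arrays were spread wider than those of TTK. FOXO3 was the lowest of this list.

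Genes of RNA processing and ribosome biogenesis had a median of 0.57 over the 7 measured, and 4 were called higher: ASCC3, the splicing factor gene CDC40 at 0.92, RPF2, which brings ribosomal RNA and proteins into the large subunit, at 0.88 and RNGTT, the capping enzyme of messenger RNA, at 0.57. CDC40 had -0.04, -0.09 and 0.13 in Ctrl and 0.75, 1.06 and 0.95 in NHE3kd. Of the 6 measured genes for mitochondrial proteins, with a median of 0.77, 5 were called higher. FBXL4, which restrains mitophagy, was at 1.02, QRSL1 at 1.01, RTN4IP1 at 0.80, MTRES1, a factor of mitochondrial transcription and translation, at 0.75 and AFG1L at 0.66. FBXL4 had 0.20, -0.07 and -0.13 in Ctrl and 1.06, 1.07 and 0.93 in NHE3kd. LYRM2, an assembly factor of respiratory complex I, lay at 0.22 and was not called.

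Other metabolic enzymes had a median of 0.60 over 9 genes, with 6 called higher. After HS3ST5 and PM20D2 came NT5DC1 at 0.68 and CYB5R4, a cytochrome b5 reductase, at 0.66. NT5DC1 was read by 2 probe sets that disagreed, at 0.06 and 1.29. AMD1, the decarboxylase that feeds polyamine synthesis, was at 0.60 and was not called, and ELOVL4, a fatty acid elongase of retina and skin, was at -0.01.

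In the list of ubiquitin, autophagy and protein quality control, 6 of 9 were called higher, with a median of 0.57 and all 9 above 0. SESN1 led, before the deubiquitinase USP45 at 0.71, SEC63 of the endoplasmic reticulum translocon at 0.65 and the Rag GTPase RRAGD at 0.61. SEC63 had 0.54, 0.74 and 0.65 in the NHE3kd arrays and at most 0.09 in Ctrl. The 9 genes of membrane trafficking, Golgi and cytoskeleton had a median of 0.76 and 5 called higher: GOPC, DOP1A, which acts in endosome and Golgi traffic, at 1.01, SH3BGRL2 at 0.88, the importin KPNA5 at 0.76 and OSTM1, the partner of a lysosomal chloride transporter, also at 0.76. SNX3, a sorting nexin, lay at 0.07.

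The list of kinases, receptors and signalling adaptors was divided. GPR63, IRAK1BP1 and MAP3K7, the kinase TAK1, were called higher, MAP3K7 at 0.67, and the 6 others lay between -0.05 and 0.13, for a median of 0.05. FRK, a Src-family kinase of epithelia, was the highest of these at 0.13, with no overlap of the groups and no call.

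Most of the 16 measured genes placed in the list of nerve, muscle, germ line or other single tissues lay near 0. Their median was 0.00, 13 lay within 0.1 of 0, and limma called none of them. At an unadjusted limma p under 0.05, for which no share over all named genes is given, 1 was higher and 0 lower. POU3F2, a neural transcription factor, was the exception with 0.77, 0.79 and 0.38 in the NHE3kd arrays and -0.32, 0.28 and 0.04 in Ctrl, a difference of 0.64 without overlap. POPDC3, a muscle membrane protein gene, had the lowest value at -0.21, and its groups overlapped. SPACA1, a sperm protein gene, was at -0.11 and RIPPLY2, a gene of somite formation, at -0.08. The 68 members in another list but not in this one had a median of 0.66 with 41 called higher. The 36 in no list had one of 0.06 with 12 called higher. Genes were placed in lists by hand with the stretch already chosen. These medians and counts depend on that placement, and nothing is read from the contrast between lists.

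Several probe sets read 6 of the members, and they often differed within a gene. HDAC2 had 0.04 and 0.75, PREP -0.01 and 0.71, ANKRD6 -0.06 and 0.42, and the 3 probe sets of the cannabinoid receptor gene CNR1 had -0.14, -0.02 and 0.01. The means of HDAC2 (0.40) and PREP (0.35) therefore stand between a probe set near 0 and one near 0.7.

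The calls did not all rest on the same arrays. Of the 53 members called higher, 33 were called by limma in each of the 6 fits that left out 1 array. Among the members named above, IRAK1BP1, ZBTB24, TSPYL4, SOBP, RPF2, RNGTT and RRAGD lost the call in 2 or more of these fits, RTN4IP1 lost it without Ctrl 4, and USP45 and MAP3K7 lost it without NHE3kd 3. ATG5, PREP, CDK19, CCNC, CEP57L1 and CEP85L also lost it in at least 1 of them. TTK, GOPC, HS3ST5, SESN1, ASCC3 and the other 5 of the 10 largest rises were called in all 6.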

How the data were processed

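Total RNA of 3 Ctrl and 3 NHE3kd samples of SK-CO15 cells was hybridised to Affymetrix Human Gene 2.0 ST arrays. The labelling kit is named differently by the labels and by the study's methods. The authors summarised the arrays with RMA16 in GeneSpring GX, for which neither labels nor methods state a version. The submitters' processing notes name hg19 as the build. The deposited values are log2 values that the authors set relative to Ctrl: averaged over the Ctrl columns, no probe set was farther than 1.27e-06 from 0. Values ran from -4.36 to 3.84, and the column medians were -0.01, 0.00 and -0.00 in Ctrl 1, 4 and 9 and -0.00, -0.01 and -0.02 in NHE3kd 2, 3 and 10. The direction is NHE3kd minus Ctrl, and the level before centring is unknown. Of 48144 probe sets 16098 had a single gene symbol and 32046 were unnamed here, so unnamed probe sets of the stretch were not used. The 6 values of 1760 probe sets equalled those of another, none of them a member's.

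Groups were taken from the labels. The log2 values were tested with limma 3.58.1 under R 4.3.3 (two-sided, from lmFit and eBayes, Benjamini-Hochberg over 48144 probe sets); the mean of a gene's probe sets was tested with the same prior. The script was tested on simulated data. Positions and promoter windows came from RefSeq on GRCh38.p14, a different build from that of the files, and were used for gene order, names and the sequences shown. The members and the function lists were chosen with earlier results of these data known. Named genes were the 5 on each side of either end, the 10 largest and 10 lowest members, members below 0 without overlap, up to 4 of each list by size, and the 3 largest changes in each direction elsewhere on chromosome 6; other genes named were chosen after their values were seen. The number of arrays limits the precision. Alternatives were an unmoderated t-test, array weights, a test against 1.5-fold, named probe sets only, median centring and quantile normalization. Others were another choice of probe set, leaving out equal probe sets, and leaving out each array.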

Additional observations from a re-analysis of the deposited data

How the results depend on the processing

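No paired analysis was made, since neither labels nor methods state a pairing of the arrays. The array numbers of the 2 groups share no number, and an effect of array order was not tested. The members called numbered 53, all higher. They numbered 22 by an unmoderated t-test, 7 by limma's test against a 1.5-fold change and 14 after quantile normalization. All of these were higher and among the 53. The share of all named genes called higher was then 2.18%, 0.403% and 1.37%. Quantile normalization moved the median of the members from 0.38 to 0.27 and its difference from the median of the rest of chromosome 6 from 0.39 to 0.27. Members lower without overlap went from 6 to 2. This normalization gives all 6 arrays the same distribution of values, and it was applied to values already set relative to Ctrl. The differences of the named members that were called all became smaller, TTK going from 1.70 to 1.24. The cause was not tested. Leaving out 1 array at a time gave 36 to 49 members called (36 to 49 higher), beside 4.51% to 8.43% of all named genes called higher. The median was then 0.36 to 0.41, and its difference from the rest of chromosome 6 was 0.37 to 0.42. Between 6 and 10 members were lower without overlap and 72 to 75 higher, where fewer arrays have to lie apart. Shares over all named genes are not given for the counts without overlap, so nothing is read from those counts. Over 462 refits of the 33 named members that were called, 364 kept the call, 98 lost it and 0 changed direction. The unmoderated t-test, the test against 1.5-fold and named probe sets only leave a member's difference unchanged, as does leaving out equal probe sets. The direction in those settings was therefore fixed in advance. FOXO3 was below 0 in all 15 settings, between -0.52 and -0.08, and these include the main fit and the settings that cannot move it. With 3 arrays a group and values set relative to Ctrl, probe sets at background could not be told from those above it.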
